A study of Rattus norvegicus with 10 samples.

Results

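The genes described here are 10 genes that macrophages express at high level: the complement C1q chains C1qa, C1qb and C1qc, the NADPH oxidase subunits Cyba and Cybb, and the macrophage genes Cd68, Csf1r, Cd14, Aif1 and Lyz2. They were measured in isolated pancreatic islets of rats with expression arrays. A member is any probe set, a group of short probes that reports 1 transcript, that the array annotation gives to a single gene symbol on this list. The rule found 13 probe sets of 31042 tested, covering 10 of 14217 genes, and it uses no measured value. The list of genes itself was chosen with earlier results of these data known. Counts of its genes set beside shares over all genes are therefore descriptions and not independent support. Cyba, Cybb and Aif1 have 2 probe sets each and the other 7 genes have 1. Where genes are counted, each is represented by whichever of its probe sets had the greatest average over the 10 arrays.

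The arrays hold 5 groups with 2 arrays each, all from pancreatic islets of rats aged 40 days. DR+/+ rats are a diabetes resistant but inducible BioBreeding (BB) strain with no mutation at the lyp locus. JBlyp/lyp rats are diabetes prone and homozygous for the lyp mutation, and JB rats are resistant but inducible and lack it. These 3 groups are called BB-related here. F344lyp and F344 rats are healthy controls, and the lyp genotype of F344lyp is taken from its name. The labels do not state how the JB and DR lines relate, but they have DR+/+ and JBlyp/lyp animals come from matings of DRlyp/+ parents. Per the protocols, islets came from fasted male rats by collagenase digestion and a density gradient, so that cells of the vessels, ducts, exocrine tissue and blood can come with them. The animals were kept at 2 institutions, and since no label says which group was kept where, housing and group cannot be told apart. Replicates are labelled as biological, yet no label tells if an array held islets of 1 rat or of several. A p-value here thus rests on the spread between replicate arrays of unknown make-up, 2 a group, pooled over the groups of the fit. All values are log2 intensities, and all differences are on that log2 scale with their standard error (SE).

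Tissue macrophages engulf dying cells, sense microbes and present antigen, and pancreatic islets hold a resident population of them. C1q is the recognition molecule of the classical complement pathway, built from the A, B and C chains, and unlike most complement proteins it is made mainly by macrophages and dendritic cells rather than by the liver. The phagocyte NADPH oxidase makes superoxide at the membrane through a core of Cybb (gp91phox), the catalytic chain, and Cyba (p22phox), its partner, which cytosolic subunits switch on. Cyba also serves oxidases of other cell types. In the BB rat, a model of autoimmune diabetes, macrophages are known to be among the early cells that enter the islets before beta cells are lost. In whole islet RNA, fewer macrophages and less RNA of a gene per macrophage cannot be told apart.

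Some facts of the arrays touch every result below. Gimap5, the gene mutated at the lyp locus, was at 8.22 and 8.41 in the DR+/+ arrays, at 5.95 and 5.65 in the JBlyp/lyp arrays, at 7.05 and 5.95 in the JB arrays, at 5.96 and 6.02 in the F344lyp arrays and at 7.03 and 6.82 in the F344 arrays. For this 1 gene the array labelled JB replicate 2 thus lies at the level of the 4 lyp arrays and goes against its label. Its means over T cell genes (5.16) and B cell genes (5.85) lay beside those of JB replicate 1 (5.19 and 5.94). In the JBlyp/lyp arrays they were 4.90 and 4.91 for T cell genes, and 5.24 and 5.31 for B cell genes. Whether the label is right was not tested, and results that use this array are also given without it. The DR+/+ arrays stood apart from the rest. Their mean over 19 measured beta cell genes was 8.91 and 8.90, against 10.94 to 11.21 in the other 8 arrays, and their mean over 15 endothelial genes was 9.67 and 9.65, against 8.07 to 8.66. Over all probe sets, replicates of a group correlated at 0.981 to 0.997, and array medians lay between 5.39 and 5.44.

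The promoters of both chains of the oxidase core and of the C1q chains that have an entry show the sequence context of the genes the results turn on. C1qb, C1qc and C1qa are neighbours on chromosome 5, Cyba lies on chromosome 19 and Cybb on chromosome X. Each sequence is from RefSeq, assembly GRCr8, and runs 5′ to 3′ on the gene's strand (the minus strand for all 4) from 250 bases before the annotated start to 50 bases after it. Capitals mark GAGGAA, the core of sites bound by PU.1, a transcription factor of the macrophage lineage, or its reverse complement, and TGANTCA, the AP-1 motif.
C1qa, chr5:154419884-154420183: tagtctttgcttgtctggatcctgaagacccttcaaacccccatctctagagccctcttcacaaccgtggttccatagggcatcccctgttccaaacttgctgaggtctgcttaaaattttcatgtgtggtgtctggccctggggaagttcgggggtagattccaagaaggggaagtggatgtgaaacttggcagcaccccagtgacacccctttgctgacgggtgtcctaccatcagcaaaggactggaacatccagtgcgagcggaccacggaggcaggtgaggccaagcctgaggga
C1qb, chr5:154407778-154408077: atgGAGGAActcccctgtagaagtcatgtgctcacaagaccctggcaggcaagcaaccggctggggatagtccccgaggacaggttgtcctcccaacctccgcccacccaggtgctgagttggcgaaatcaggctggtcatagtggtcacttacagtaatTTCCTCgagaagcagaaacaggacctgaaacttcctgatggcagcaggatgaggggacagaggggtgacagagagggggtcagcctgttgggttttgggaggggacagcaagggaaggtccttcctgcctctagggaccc
Cyba, chr19:67404165-67404464: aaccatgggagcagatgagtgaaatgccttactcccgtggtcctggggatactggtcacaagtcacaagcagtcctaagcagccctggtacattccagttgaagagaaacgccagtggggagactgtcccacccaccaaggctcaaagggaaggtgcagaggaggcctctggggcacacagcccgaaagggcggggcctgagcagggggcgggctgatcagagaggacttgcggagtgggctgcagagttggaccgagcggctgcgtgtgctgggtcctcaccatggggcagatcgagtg
Cybb, chrX:16065016-16065315: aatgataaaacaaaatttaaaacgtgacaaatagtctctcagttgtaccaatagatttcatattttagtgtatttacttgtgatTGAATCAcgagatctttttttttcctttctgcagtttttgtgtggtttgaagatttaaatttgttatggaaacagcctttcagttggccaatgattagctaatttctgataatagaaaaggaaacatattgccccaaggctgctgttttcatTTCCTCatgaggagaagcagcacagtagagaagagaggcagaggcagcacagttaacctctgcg

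Searched on both strands, GAGGAA occurs in 6 of the 8 members with a promoter entry (C1qb, Cybb, Cd68, Csf1r, Cd14 and Lyz2) and in 27.6% of 33469 promoters of the same length. In C1qb it begins at -247 on the gene's strand and at -90 on the opposite strand, counted from the start, and in Cybb at -14 on the opposite strand. TGANTCA occurs in Cd68 and Cybb, where it begins at -166, and in 7.33% of all promoters. C1qa and Cyba hold neither run of letters in this window, and C1qc and Aif1 have no promoter entry. Motif matches are a description of these letters and not of binding.

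The 3 C1q chains were lower in every BB-related array than in every F344lyp and F344 array. C1qa, the A chain, was at 4.93 and 5.38 in the DR+/+ arrays, at 6.98 and 6.78 in the JBlyp/lyp arrays, at 6.43 and 6.14 in the JB arrays, at 8.28 and 8.38 in the F344lyp arrays and at 8.02 and 7.95 in the F344 arrays. From low to high the groups ran DR+/+, JB, JBlyp/lyp, F344 and F344lyp, and no group overlapped its neighbour in that order. C1qc, the C chain, was at 4.57 and 4.62 in DR+/+, at 6.44 and 5.33 in JBlyp/lyp, at 5.92 and 5.58 in JB, at 8.15 and 8.13 in F344lyp and at 7.38 and 7.07 in F344. Its groups kept the order of C1qa, except that JBlyp/lyp and JB overlapped. C1qb, the B chain, was at 4.97 and 4.69 in DR+/+, at 5.28 and 5.17 in JBlyp/lyp, at 4.65 and 4.99 in JB, at 6.04 and 6.26 in F344lyp and at 5.74 and 5.70 in F344. DR+/+ and JB overlapped for this chain, and the range of its group means, 1.33, was smaller than those of C1qa (3.18) and C1qc (3.54). Since each gene is read by its own probes, these ranges compare responses and not amounts of the chains.

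**Figure D1:**
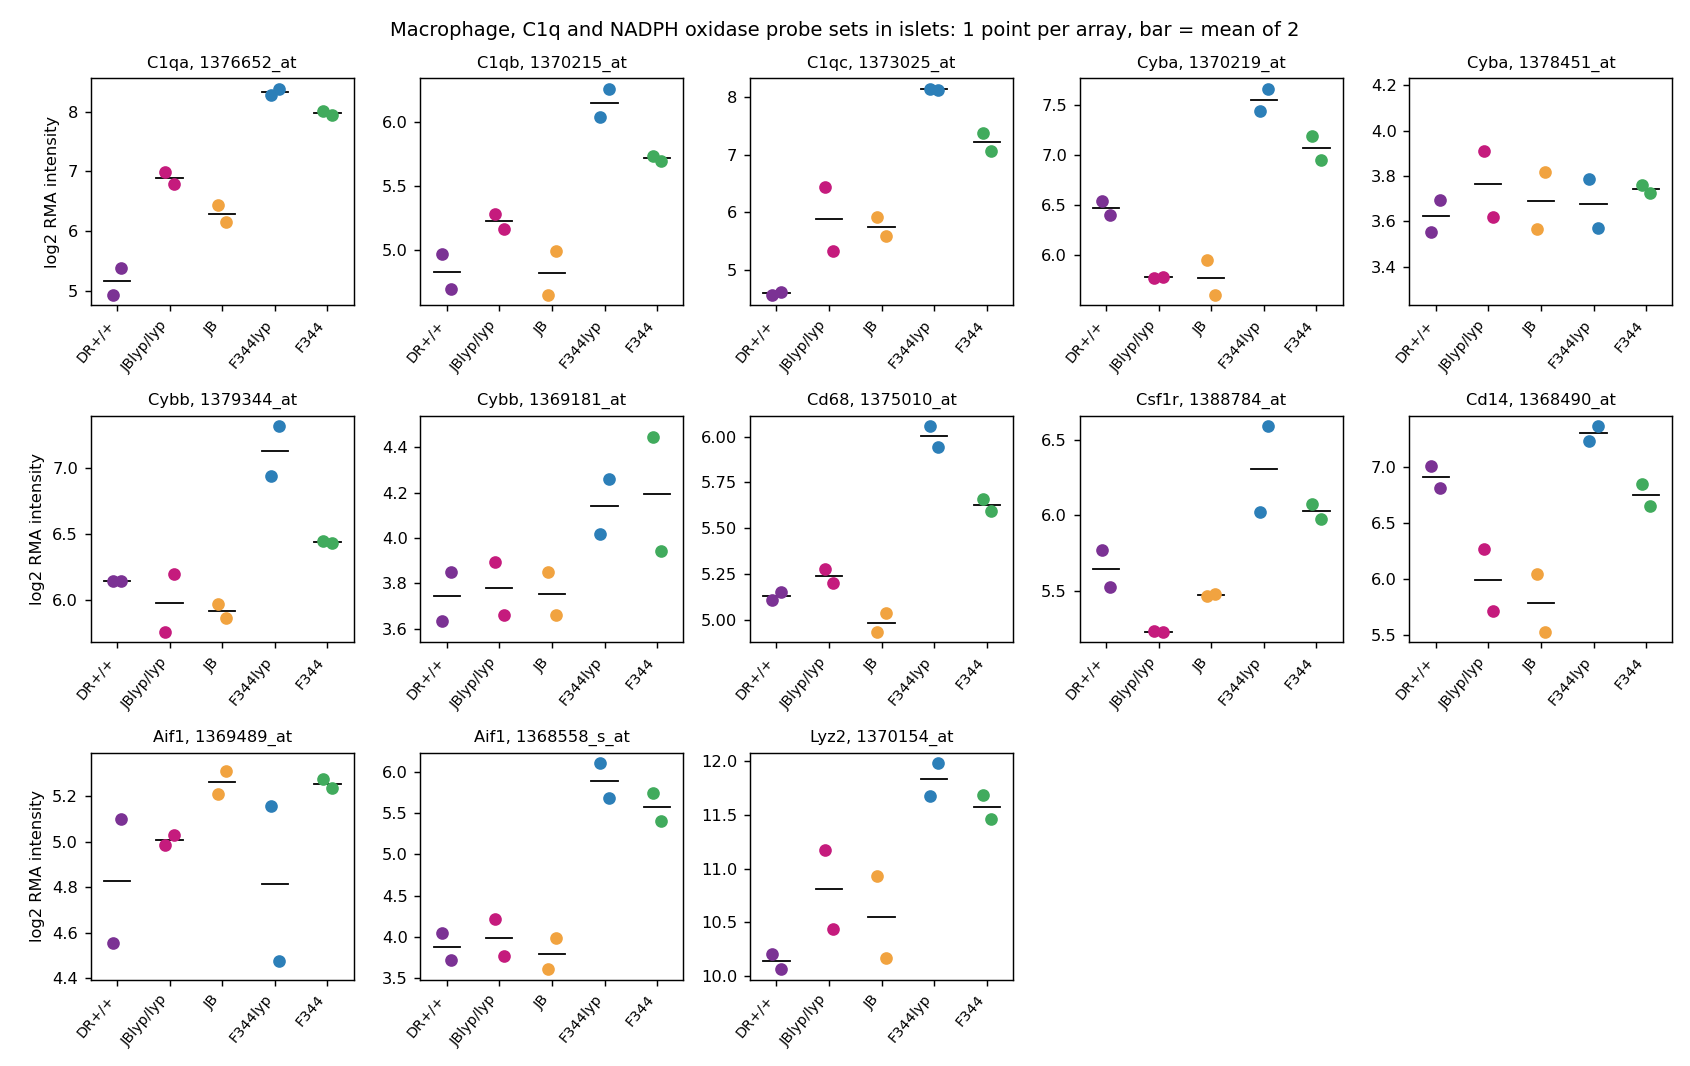
Log2 intensity (vertical axis, a scale of its own in each panel) of the 13 member probe sets in the 10 arrays, with 1 point per array, a bar at the mean of each group of 2, and the groups along the horizontal axis. For C1qa the 6 BB-related arrays lie between 4.93 and 6.98 and the 4 F344lyp and F344 arrays between 7.95 and 8.38, while the probe set 1369489_at of Aif1 shows no such step.

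Of the oxidase core, Cyba was at 6.54 and 6.40 in DR+/+, at 5.78 and 5.78 in JBlyp/lyp, at 5.95 and 5.60 in JB, at 7.44 and 7.66 in F344lyp and at 7.19 and 6.95 in F344. Unlike C1qa and C1qc, which were lowest in DR+/+, Cyba had its lowest levels in JB and JBlyp/lyp, which overlapped, with DR+/+ between them and the F344 arrays. Cybb was at 6.14 and 6.15 in DR+/+, at 5.76 and 6.19 in JBlyp/lyp, at 5.97 and 5.86 in JB, at 6.94 and 7.32 in F344lyp and at 6.44 and 6.43 in F344. The 3 BB-related groups ran into each other for Cybb, and F344lyp stood above F344. Each of these genes has a dimmer probe set as well. For Cyba its group means spanned only 0.14 and all neighbouring groups overlapped, while for Cybb its values ran from 3.63 to 3.90 in the BB-related arrays and from 3.94 to 4.45 in the F344lyp and F344 arrays.

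Among the surface and lysosomal genes, Cd68, a lysosomal membrane protein used to stain macrophages, was at 5.11 and 5.15 in DR+/+, at 5.28 and 5.20 in JBlyp/lyp, at 4.94 and 5.04 in JB, at 6.06 and 5.95 in F344lyp and at 5.66 and 5.60 in F344. Its groups did not overlap at any neighbouring step from JB through DR+/+, JBlyp/lyp and F344 up to F344lyp. Some of these steps were small, as from 5.04 in JB to 5.11 in DR+/+, and the share of all genes with every step apart was not counted. Csf1r, the receptor through which macrophages receive their survival signal, was at 5.77 and 5.53 in DR+/+, at 5.23 and 5.23 in JBlyp/lyp, at 5.47 and 5.48 in JB, at 6.02 and 6.59 in F344lyp and at 6.07 and 5.98 in F344. It was lowest in JBlyp/lyp, and F344lyp and F344 overlapped. Cd14, the coreceptor for bacterial lipopolysaccharide, was at 7.01 and 6.82 in DR+/+, at 6.26 and 5.71 in JBlyp/lyp, at 6.04 and 5.52 in JB, at 7.24 and 7.37 in F344lyp and at 6.85 and 6.65 in F344. For Cd14 the DR+/+ arrays overlapped the F344 arrays. Lyz2, the lysozyme of macrophages and granulocytes, was at 10.21 and 10.06 in DR+/+, at 11.18 and 10.44 in JBlyp/lyp, at 10.94 and 10.17 in JB, at 11.68 and 11.99 in F344lyp and at 11.69 and 11.47 in F344. The JB and JBlyp/lyp replicates of Lyz2 differed by more than 0.7, and these groups overlapped.

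Aif1, a calcium-binding protein of macrophages and microglia also called Iba1, gave different pictures by its 2 probe sets. The probe set 1369489_at, with the higher mean, was at 4.55 and 5.10 in DR+/+, at 4.99 and 5.03 in JBlyp/lyp, at 5.21 and 5.31 in JB, at 5.16 and 4.47 in F344lyp and at 5.28 and 5.24 in F344, without a step between the backgrounds. The probe set 1368558_s_at was at 4.05 and 3.71 in DR+/+, at 4.21 and 3.77 in JBlyp/lyp, at 3.61 and 3.99 in JB, at 6.11 and 5.68 in F344lyp and at 5.74 and 5.40 in F344, with a gap of 1.19 between the backgrounds. Its suffix marks probes that may match more than 1 transcript. Which of them follows the Aif1 transcript was not tested, so no direction is given for the gene.

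Over the 10 genes, F344lyp had the highest group mean for 9, against 28.2% of all genes, and JB for Aif1. The lowest mean was that of JB for 5 genes, of DR+/+ for 3, of JBlyp/lyp for Csf1r and of F344lyp for Aif1. Over all genes, DR+/+ was lowest for 37.8% and JB for 12.7%. For 8 of the 10 genes (all but Cd14 and Aif1), and 10 of the 13 probe sets, all 6 BB-related arrays lay below all 4 F344lyp and F344 arrays, which held for 10.6% of all genes.

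Set against F344 as a whole, the BB-related islets had lower signal for 9 of the 10 genes. The comparison is the average of 3 group means (DR+/+, JBlyp/lyp and JB, 6 arrays) minus that of F344lyp and F344 (4 arrays), and it was tested for each probe set with limma and Benjamini-Hochberg adjustment over all 31042. Over all genes, 24.6% were lower at the same threshold, an adjusted p under 0.05, and 37.9% changed in either direction. The median difference of the 10 genes was -0.89, against -0.04 over all genes. C1qc fell by 2.27 (SE 0.19, a 4.84-fold lower signal, adjusted p = 3.36e-05) and C1qa fell by 2.05 (SE 0.12, 4.14-fold, adjusted p = 3.33e-06). The third chain, C1qb, fell by 0.98 (SE 0.11, adjusted p = 0.00015). Cyba fell by 1.30 (SE 0.11, 2.46-fold, adjusted p = 2.71e-05) and its catalytic partner Cybb fell by 0.77 (SE 0.12, adjusted p = 0.000808). Lyz2 fell by 1.21 (SE 0.18), Cd14 fell by 0.80 (SE 0.14), Csf1r fell by 0.72 (SE 0.12) and Cd68 fell by 0.69 (SE 0.08), with adjusted p-values between 0.000218 and 0.0022. For Aif1, 1369489_at differed by -0.004 (SE 0.15, adjusted p = 0.987) and 1368558_s_at fell by 1.85 (SE 0.15, adjusted p = 2.61e-05). The dimmer probe set of Cyba differed by -0.02 (adjusted p = 0.916) and that of Cybb fell by 0.41 (adjusted p = 0.0305). That last call ended without DR+/+ replicate 1, F344 replicate 1, F344lyp replicate 2, JBlyp/lyp replicate 2 or the array labelled JB replicate 2.

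The same 9 genes were called without the DR+/+ arrays, where the difference was -1.57 for C1qa, -1.87 for C1qc, -1.53 for Cyba and -1.14 for Cd14, and also without each single array in turn. The error of this comparison leaves out the spread between groups of 1 background. With the strain group as a random block 5 genes were called (C1qa, C1qb, C1qc, Cyba and Cd68), and the adjusted p was 0.241 for Cd14, 0.0876 for Csf1r, 0.0906 for Cybb and 0.068 for Lyz2. The difference between the 3′ and 5′ probe sets of Gapdh, a sign of how intact the RNA was and how fully it was copied, lay between 2.75 and 3.71 in the BB-related arrays and between 2.19 and 2.43 in the F344lyp and F344 arrays. With it as a covariate none of the 10 genes (0) was called for this comparison, nor were any but 8 of the 31042 probe sets, and the estimates were -2.65 (SE 0.46) for C1qa, -1.99 (SE 0.85) for C1qc, -0.18 (SE 0.38) for C1qb and -1.75 (SE 0.44) for Cyba. RNA quality and background cannot be told apart in these arrays.

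**Figure D2:**
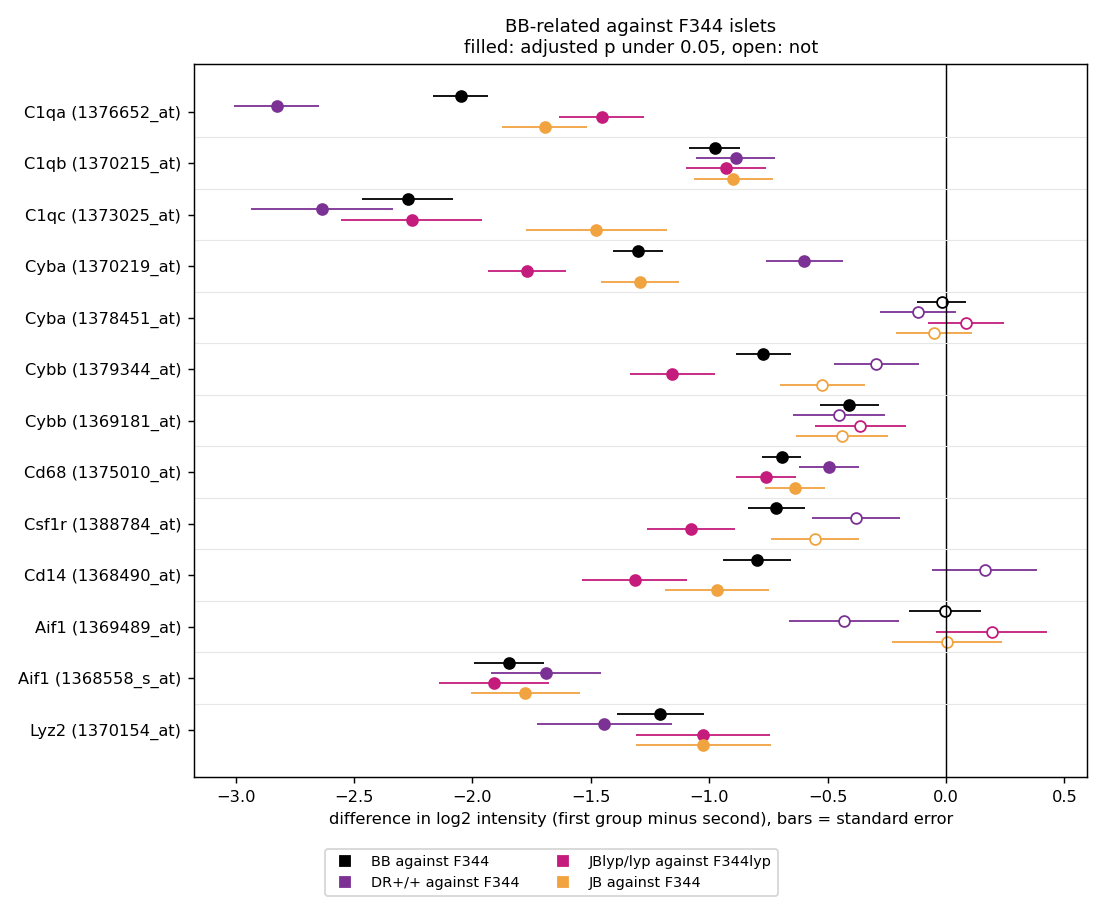
Difference in log2 intensity (horizontal axis) of each member probe set (vertical axis) for BB against F344, DR+/+ against F344, JBlyp/lyp against F344lyp and JB against F344, with the first group minus the second and bars of 1 standard error. Filled points passed an adjusted p of 0.05. C1qa and C1qc lie furthest to the left in DR+/+ against F344 (-2.83 and -2.63), where Cd14 lies at 0.16.

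The background was then compared within each lyp genotype. With lyp on both sides, JBlyp/lyp against F344lyp, 9 of the 10 genes were lower (all but Aif1), against 11.3% of all genes, and the median difference was -1.12, against -0.04 over all genes. C1qc fell by 2.26 (SE 0.30, adjusted p = 0.0013), Cyba fell by 1.77 (SE 0.16, adjusted p = 0.000153), C1qa fell by 1.45 (SE 0.18, adjusted p = 0.000864) and Cd14 fell by 1.31 (SE 0.22, adjusted p = 0.00466). Cybb fell by 1.16 (SE 0.18) and Csf1r fell by 1.08 (SE 0.19). The remaining falls were those of Lyz2 at -1.03 (SE 0.28, adjusted p = 0.0403), C1qb at -0.93 (SE 0.17) and Cd68 at -0.76 (SE 0.13). Aif1 1368558_s_at fell by 1.91 (SE 0.23). With the Gapdh covariate 0 of the 10 genes were called here and 0 in JB against F344. Without F344lyp replicate 2 the calls were 6, with C1qb, Cd14 and Lyz2 lost, and leaving out F344lyp replicate 1 or JBlyp/lyp replicate 2 also ended the call of Lyz2, as did a fit of these 4 arrays alone (adjusted p = 0.0787).

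Without lyp, JB against F344, 7 of the 10 genes were lower, against 8.22% of all genes, with a median of -0.93, against -0.04 over all genes. C1qa fell by 1.70 (SE 0.18, adjusted p = 0.000505), C1qc fell by 1.48 (SE 0.30, adjusted p = 0.0125) and Cyba fell by 1.29 (SE 0.16, adjusted p = 0.00127). The other calls were Lyz2 at -1.02 (SE 0.28, adjusted p = 0.0457), Cd14 at -0.97 (SE 0.22, adjusted p = 0.0213), C1qb at -0.90 (SE 0.17) and Cd68 at -0.64 (SE 0.13). Cybb, at -0.52 (SE 0.18, adjusted p = 0.0956), and Csf1r, at -0.55 (SE 0.19, adjusted p = 0.089), did not pass. In a fit of the JB and F344 arrays alone Csf1r passed (adjusted p = 0.0453) and Lyz2 did not (adjusted p = 0.0574). Both JB arrays lay below both F344 arrays for Cybb and Csf1r, as for 34.2% of all genes. Aif1 1368558_s_at fell by 1.78 (SE 0.23). Without the array labelled JB replicate 2 the calls were 4, with C1qc, Cd14 and Lyz2 lost. They were 6 without JB replicate 1, with Cd68 lost, and 2 when either F344 array was left out, those of C1qa and Cyba. Whether these differences are unlike with and without lyp is the question of the difference between the lyp effects, given with the lyp comparisons.

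Against F344, whose arrays also serve as the control of JB, DR+/+ was lower for 6 of the 10 genes, against 23.8% of all genes, with a median of -0.55, against -0.06 over all genes. C1qa fell by 2.83 (SE 0.18, 7.09-fold, adjusted p = 5.86e-06), C1qc fell by 2.63 (SE 0.30, adjusted p = 0.000124) and Lyz2 fell by 1.44 (SE 0.28, adjusted p = 0.00335). C1qb fell by 0.89, Cyba fell by 0.60 (adjusted p = 0.0187) and Cd68 fell by 0.49 (adjusted p = 0.0136). Cd14 differed by 0.16 (SE 0.22, adjusted p = 0.63), Cybb differed by -0.29 (adjusted p = 0.252) and Csf1r differed by -0.38 (adjusted p = 0.154). With the Gapdh covariate 1 gene was called, C1qa. Leaving out F344 replicate 1 gave 4 calls, with Cd68 and Cyba lost. They were 5 without DR+/+ replicate 1, DR+/+ replicate 2 or F344 replicate 2, with Cd68 or, for DR+/+ replicate 2, Cyba lost.

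Compared directly with JB, DR+/+ islets had lower C1qa and C1qc and higher Cyba and Cd14. Of the 10 genes 2 were lower and 2 higher, against 18.4% lower and 15.5% higher over all genes, so these counts are near those of any 10 genes. C1qa fell by 1.13 (SE 0.18, adjusted p = 0.00111) and C1qc fell by 1.16 (SE 0.30, adjusted p = 0.0159), whereas C1qb differed by 0.01 (SE 0.17, adjusted p = 0.974; -0.18 with the Gapdh covariate). Cd14 rose by 1.13 (SE 0.22, adjusted p = 0.0038) and Cyba by 0.69 (SE 0.16, adjusted p = 0.0104), while Cybb differed by 0.23 (adjusted p = 0.399). Without the array labelled JB replicate 2 the Cyba call ended (adjusted p = 0.0714), and with the Gapdh covariate that of C1qc ended (adjusted p = 0.0537). The counts of calls were 2 without DR+/+ replicate 1, with C1qc and Cyba lost, and 3 without DR+/+ replicate 2 or JB replicate 1, with C1qc lost. Beta cell genes were lower in 18 of 19 cases in this comparison, at a median of -2.12, and acinar genes in 17 of 22, at a median of -1.38. Their part in the members' differences was not tested.

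The lyp mutation was compared with its absence in both backgrounds. These comparisons miss most small changes, since in simulated data they recovered 0.667% (JB) and 1.33% (F344) of changes of 0.5, and 47% and 41.3% of changes of 1. In JB (JBlyp/lyp against JB) limma called 0 of the 10 genes and 1 of all genes, 0.00703%, and 2 of the 10 had an unadjusted p under 0.05, against 6.03% of all genes. These were C1qa, higher by 0.59 in JBlyp/lyp (SE 0.18, unadjusted p = 0.00808, adjusted p = 0.606), and C1qb, higher by 0.40 (SE 0.17, unadjusted p = 0.0372, adjusted p = 0.785), with both JBlyp/lyp arrays above both JB arrays, as for 14.9% of all genes. With the Gapdh covariate the sign of C1qb turned, to -0.16 (SE 0.29). The other differences ran from -0.25 for Aif1 to 0.25 for Lyz2. In F344 (F344lyp against F344) limma again called 0 of the 10 genes, against 1.9% of all genes, but 6 had an unadjusted p under 0.05, against 17.2% of all genes, and each of the 6 was higher in F344lyp. C1qc was higher by 0.91 (SE 0.30, adjusted p = 0.18), Cybb by 0.69 (SE 0.18, adjusted p = 0.0983), Cd14 by 0.55 (SE 0.22), Cyba by 0.48 (SE 0.16), C1qb by 0.43 (SE 0.17) and Cd68 by 0.37 (SE 0.13). Both F344lyp arrays lay above both F344 arrays for 7 genes, these 6 and C1qa, which held for 34.3% of all genes. The dimmer probe set of Cybb differed by -0.054 (SE 0.19, adjusted p = 0.925) and that of Cyba by -0.065 (SE 0.16, adjusted p = 0.886). In a fit of the F344lyp and F344 arrays alone 3 genes were called, C1qc (adjusted p = 0.00245), Cybb (adjusted p = 0.0133) and Cd14 (adjusted p = 0.0276), and over all probe sets 10.4% were called.

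The difference between the lyp effects, JBlyp/lyp minus JB less F344lyp minus F344, passed for 0 of the 10 genes in limma, against 0.478% of all genes. At an unadjusted p under 0.05 it was 1 gene, against 8.68% of all genes. That gene was Cybb, at -0.63 (SE 0.25, adjusted p = 0.589), while its dimmer probe set differed by 0.08 (SE 0.27, adjusted p = 0.976). C1qc at -0.78 (SE 0.42) and Csf1r at -0.52 (SE 0.26) passed neither threshold. In simulated data the test of this difference recovered 0% of changes of 0.5 and 9.67% of changes of 1. The lack of calls thus does not show that the lyp effects are alike. For lyp in JB and the difference between the lyp effects, leaving out the array labelled JB replicate 2 added no member call. The comparison of F344lyp with F344 does not use that array and was not refitted without it.

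**Figure D3:**
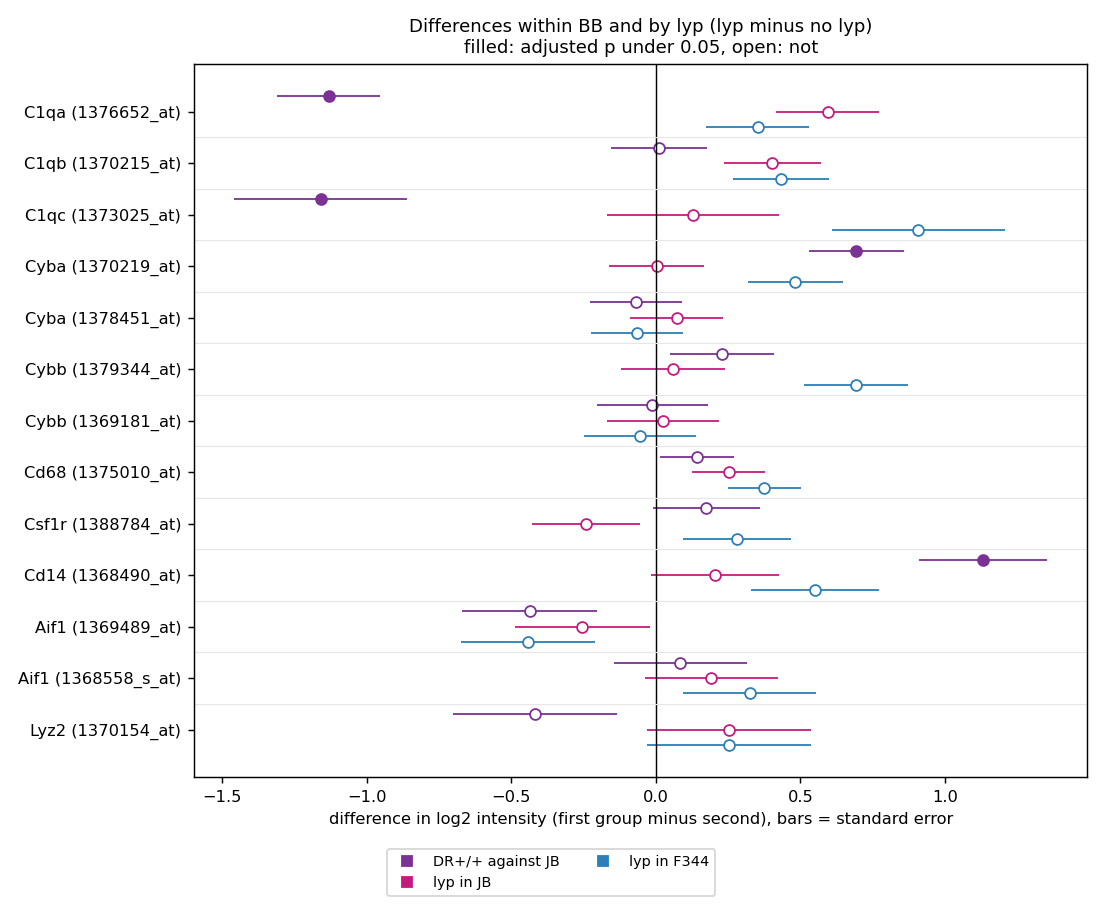
Difference in log2 intensity (horizontal axis) of each member probe set (vertical axis) for DR+/+ against JB, for lyp in JB (JBlyp/lyp minus JB) and for lyp in F344 (F344lyp minus F344), with bars of 1 standard error and filled points at an adjusted p under 0.05. The filled points are C1qa and C1qc below 0, and Cyba and Cd14 above 0, all in DR+/+ against JB.

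Other genes of the same pathways were described from lists. Of the 19 list genes named below for BB against F344 by the size of their difference, 6 were also called with the strain group as a random block (Apoe, Mrc1, Ctsd, Ms4a7, Cfd and Ly6c), 12 with each array weighted equally and 0 with the Gapdh covariate. Of 44 other macrophage genes 38 were measured, and in BB against F344 22 were lower and 2 higher, against 24.6% of all genes lower. Their median was -0.43, against -0.04 over all genes. The largest falls were those of Apoe, a lipid carrier, at -2.12 (SE 0.24, adjusted p = 0.000181), Mrc1, the mannose receptor, at -1.25, Ctsd, a lysosomal protease, at -1.25, and Ms4a7 at -1.20. The higher genes, named after their values were seen, were the lipopolysaccharide receptor Tlr4 at 0.46 (adjusted p = 0.0176) and Trem2 at 0.31 (adjusted p = 0.045). Without the DR+/+ arrays 20 were lower and 0 higher. The count of higher genes was 0 without F344 replicate 1, F344 replicate 2 or F344lyp replicate 2, and 1 without 6 other single arrays. In JBlyp/lyp against F344lyp 17 were lower and 0 higher (6 lower without F344lyp replicate 2), and in JB against F344 10 were lower and 0 higher. The last count was 3 without F344 replicate 1, 5 without F344 replicate 2 and 6 without the array labelled JB replicate 2. Many of these genes are also expressed by other cells of the islet preparation, Apoe, Ctsd, Ctsb and Lamp1 among them.

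In DR+/+ against F344 14 of these 38 genes were lower and 3 higher (23.8% of all genes were lower). In DR+/+ against JB 6 were lower and 9 higher, near the shares over all genes (18.4% and 15.5%). Tlr4 was higher in DR+/+ than in JB by 1.81 (SE 0.19, adjusted p = 1e-04), its partner Ly96 by 1.12 (SE 0.18) and the chemokine Pf4 by 0.95 (SE 0.19), and Hmox1, which degrades haem, changed by -0.90 (SE 0.16). Ly96 holds the lipopolysaccharide that Cd14 hands to Tlr4. In DR+/+ against JB 14 of 18 stellate and fibroblast genes and 13 of 15 endothelial genes were also higher, and their part in these differences was not tested. The count of 9 was 4 without DR+/+ replicate 2, and that of 6 was 3 without DR+/+ replicate 1 or JB replicate 1.

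The complement list, other than C1q, was measured for 16 of 23 genes. In BB against F344 6 were lower and 2 higher, at a median of -0.15, against 24.6% lower and 37.9% changed in either direction over all genes. Cfd, factor D of the alternative pathway, fell by 2.08 (SE 0.16, adjusted p = 2.14e-05), Cfi, factor I, which cleaves C3b, fell by 1.97 (SE 0.13, adjusted p = 1.01e-05), C3 fell by 1.15 and Clu, which blocks the terminal complex, fell by 0.83. With the strain group as a random block the adjusted p was 0.298 for C3 and 0.197 for Clu, and with the mean of its probe sets Clu differed by -0.16 (adjusted p = 0.335). The higher genes, named after their values were seen, were C1r at 0.46 and Cd55 at 0.38. Without the DR+/+ arrays 7 were lower and 0 higher, and without F344 replicate 1 the higher count was 1. The proteases that C1q activates were high in DR+/+, where C1qa and C1qc were low. C1s was at a mean of 11.83 there, against 9.37 in JB and 9.76 in F344, and C1r at 10.60, against 8.49 in JB and 8.42 in F344. Against JB they rose by 2.46 (SE 0.14, adjusted p = 6.17e-06) and 2.11 (SE 0.14, adjusted p = 9.53e-06). The list as a whole had 8 higher and 2 lower, against 15.5% higher and 18.4% lower over all genes. The lower count was 1 without either DR+/+ array and 0 without either JB array. Fibroblasts and endothelial cells also express C1r and C1s, and in this comparison 14 of 18 stellate and fibroblast genes and 13 of 15 endothelial genes were higher, at medians of 1.34 and 1.06, with 0 lower in each list.

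Complement genes were also lower in JBlyp/lyp than in F344lyp, with 7 lower and 0 higher (4 without F344lyp replicate 1, F344lyp replicate 2 or JBlyp/lyp replicate 2). Among these Cfi fell by 3.41 (SE 0.21), C3 fell by 2.63 (SE 0.26), Cfd fell by 2.48 (SE 0.25) and C1s fell by 1.23 (SE 0.14). Under lyp in F344, where 1.9% of all genes were called, calls fell on several lists. Of the other macrophage genes 3 of 38 were higher (Cd36 by 1.48, Gpnmb by 1.05 and Adgre1 by 0.905). Of the acinar genes 4 of 22 were higher and of the ductal genes 3 of 13, with 0 lower on these lists. Without F344 replicate 1 fewer macrophage and acinar genes were called. In the same comparison 4 complement genes were higher and 0 lower. They were C3 by 2.04 (SE 0.26, adjusted p = 0.00555), Cfi by 1.36 (SE 0.21, adjusted p = 0.0155), Cfd by 1.21 (SE 0.25, adjusted p = 0.0493) and C1s by 0.84 (SE 0.14, adjusted p = 0.0202). None of the 4 calls (0) was made without F344 replicate 1, F344 replicate 2 or F344lyp replicate 2, and that of Cfd also ended without F344lyp replicate 1. In JB against F344 3 were lower and 0 higher, Cfi at -1.51, Cfd at -1.19 and C5 at -0.61, and 1 was left without F344 replicate 1 or the array labelled JB replicate 2.

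The rest of the oxidase list was measured for 9 of 13 genes. In BB against F344, where 24.6% of all genes were lower, the count of calls was near that of any 9 genes. Only 2 passed, both lower. They were Duox2, an epithelial oxidase, at -0.99 (SE 0.10, adjusted p = 0.000103) and Rac2, the small GTPase of the leukocyte oxidase, at -0.40 (SE 0.12, adjusted p = 0.0253). With the strain group as a random block the adjusted p was 0.243 for Duox2 and 0.489 for Rac2. The Rac2 call also ended without DR+/+ replicate 2, F344 replicate 1, F344lyp replicate 1, F344lyp replicate 2 or the array labelled JB replicate 2. The cytosolic subunits that work with Cyba and Cybb did not pass, with Ncf1 at 0.08 (SE 0.08, adjusted p = 0.536) and Ncf4 at -0.17 (SE 0.12, adjusted p = 0.308), nor did Cybc1, the chaperone of the core pair, at -0.17 (SE 0.10, adjusted p = 0.241). Nor did the catalytic chains of other oxidases, Nox1 at 0.24 (adjusted p = 0.0547) and Nox4 at -0.13 (adjusted p = 0.303). Duox2 had its highest group mean in F344lyp. It differed in JBlyp/lyp against F344lyp by -2.19 (SE 0.16, adjusted p = 3.18e-05), and higher in F344lyp than in F344 by 1.96 (SE 0.16, adjusted p = 0.000336), a call that no single left-out array ended.

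The list of Csf1 and macrophage lineage factors, the ligands of Csf1r and transcription factors of the lineage, was measured for 12 of 14 genes. In BB against F344 1 was lower, Irf8 at -0.64 (SE 0.10, adjusted p = 0.00127), and 2 were higher, Csf1 at 0.49 (SE 0.11, adjusted p = 0.00774) and Cebpb at 0.43 (SE 0.13, adjusted p = 0.0305). Over all genes 24.6% were lower and 37.9% changed in either direction. Without the DR+/+ arrays Csf1 was not called and differed by 0.06, and 4 genes were lower and 1 higher. The Cebpb call ended without any of 6 single arrays (DR+/+ replicates 1 and 2, F344 replicate 2, F344lyp replicate 1, JBlyp/lyp replicate 2 and the array labelled JB replicate 2), and 2 genes were lower when DR+/+ replicate 1 was left out. Csf1, the ligand of Csf1r, had a mean of 9.51 in DR+/+ against 8.44 in JB and 8.17 in F344, higher than JB by 1.07 (SE 0.17, adjusted p = 0.00119). Runx1 was higher than in JB by 2.33 (SE 0.18), Maf by 1.60 (SE 0.29) and Cebpa by 1.23 (SE 0.22), while the receptor differed by 0.18 (SE 0.19, adjusted p = 0.548). In DR+/+ against JB 14 of 18 stellate and fibroblast genes and 13 of 15 endothelial genes were also higher. Their part in these differences was not tested. On the Csf1 list 7 of the 12 genes were higher and 0 lower, against 15.5% higher and 18.4% lower over all genes. Without DR+/+ replicate 1 the count of higher genes was 4.

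Markers of related cells are read against the 24.6% of all genes that were lower in BB against F344. Of 11 monocyte and neutrophil genes measured 2 were lower in BB against F344, Ly6c at -1.08 (SE 0.10) and the protease Mmp9 at -0.69 (SE 0.11), and 0 higher (4 lower without JBlyp/lyp replicate 1). Of 11 dendritic cell genes 3 were lower and 1 higher. These were Cd74, the invariant chain of class II molecules, at -1.18 (SE 0.17), Clec9a at -0.50, Batf3 at -0.44 and Flt3 at 0.43, and without the DR+/+ arrays Flt3 differed by 0.01 and 0 were higher. The Batf3 call ended without F344 replicate 1. Of 15 pan-leukocyte genes 6 were lower and 0 higher, at a median of -0.20.

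The genes whose profile over the 10 arrays was most like that of C1q were named by the smallest root mean square difference from the mean of the 3 C1q chains, each centred on its own mean. The 8 closest were Cnpy2 (0.0873), Lage3 (0.14), Macrod1 (0.143), Pop5 (0.147), Gnpda1 (0.161), Prelid1 (0.171), Gstm7 (0.173) and Acat1 (0.191), against a median of 0.974 over all genes. Of these, 0 are on any of the leukocyte or macrophage lists. Cnpy2, for example, was at 7.20 and 7.16 in DR+/+, 8.81 and 8.10 in JBlyp/lyp, 8.08 and 7.91 in JB, 9.77 and 9.98 in F344lyp and 9.35 and 9.19 in F344, which is the order of C1qa. Among all 14217 genes C1qa itself ranked 33 by this measure, C1qc 90, Lyz2 140 and C1qb 511. The C1q chains make up the profile, so their closeness to it is partly built in. The other members lay further off, with Cd68 at 1440, Cyba at 1630, Cybb at 1839, Csf1r at 2444, Cd14 at 4608 and Aif1 at 7938. Values were not scaled, so the rank reflects the size of the steps between groups as well as their order. The group means of Cd68, for example, spanned 1.01, against 3.18 for C1qa. The points share 5 groups of 2 arrays, and this likeness is a description of these arrays.

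Other measures of the arrays also differed between the groups. The mean of 22 acinar genes, which mark the enzyme-secreting exocrine cells around the islets, was 9.42 and 9.39 in DR+/+, 10.75 and 10.18 in JBlyp/lyp, 10.81 and 10.49 in JB, 12.81 and 13.04 in F344lyp and 12.25 and 12.06 in F344. The acinar mean and the C1q profile were both lowest in DR+/+ and highest in F344lyp, with JB and JBlyp/lyp between, but the acinar group mean was lower in JBlyp/lyp than in JB while the C1q profile was higher. In BB against F344 22 of 22 acinar genes were lower and 0 higher, at a median of -2.19. The mean of the 38 other macrophage genes was 5.74 and 5.73 in DR+/+, 5.67 and 5.66 in JBlyp/lyp, 5.62 and 5.62 in JB, 6.19 and 6.29 in F344lyp and 6.10 and 6.00 in F344, with the step between backgrounds but without the low DR+/+ values. The part of the exocrine signal and of RNA quality in the members' differences was not tested beyond the covariate.

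**Figure D4:**
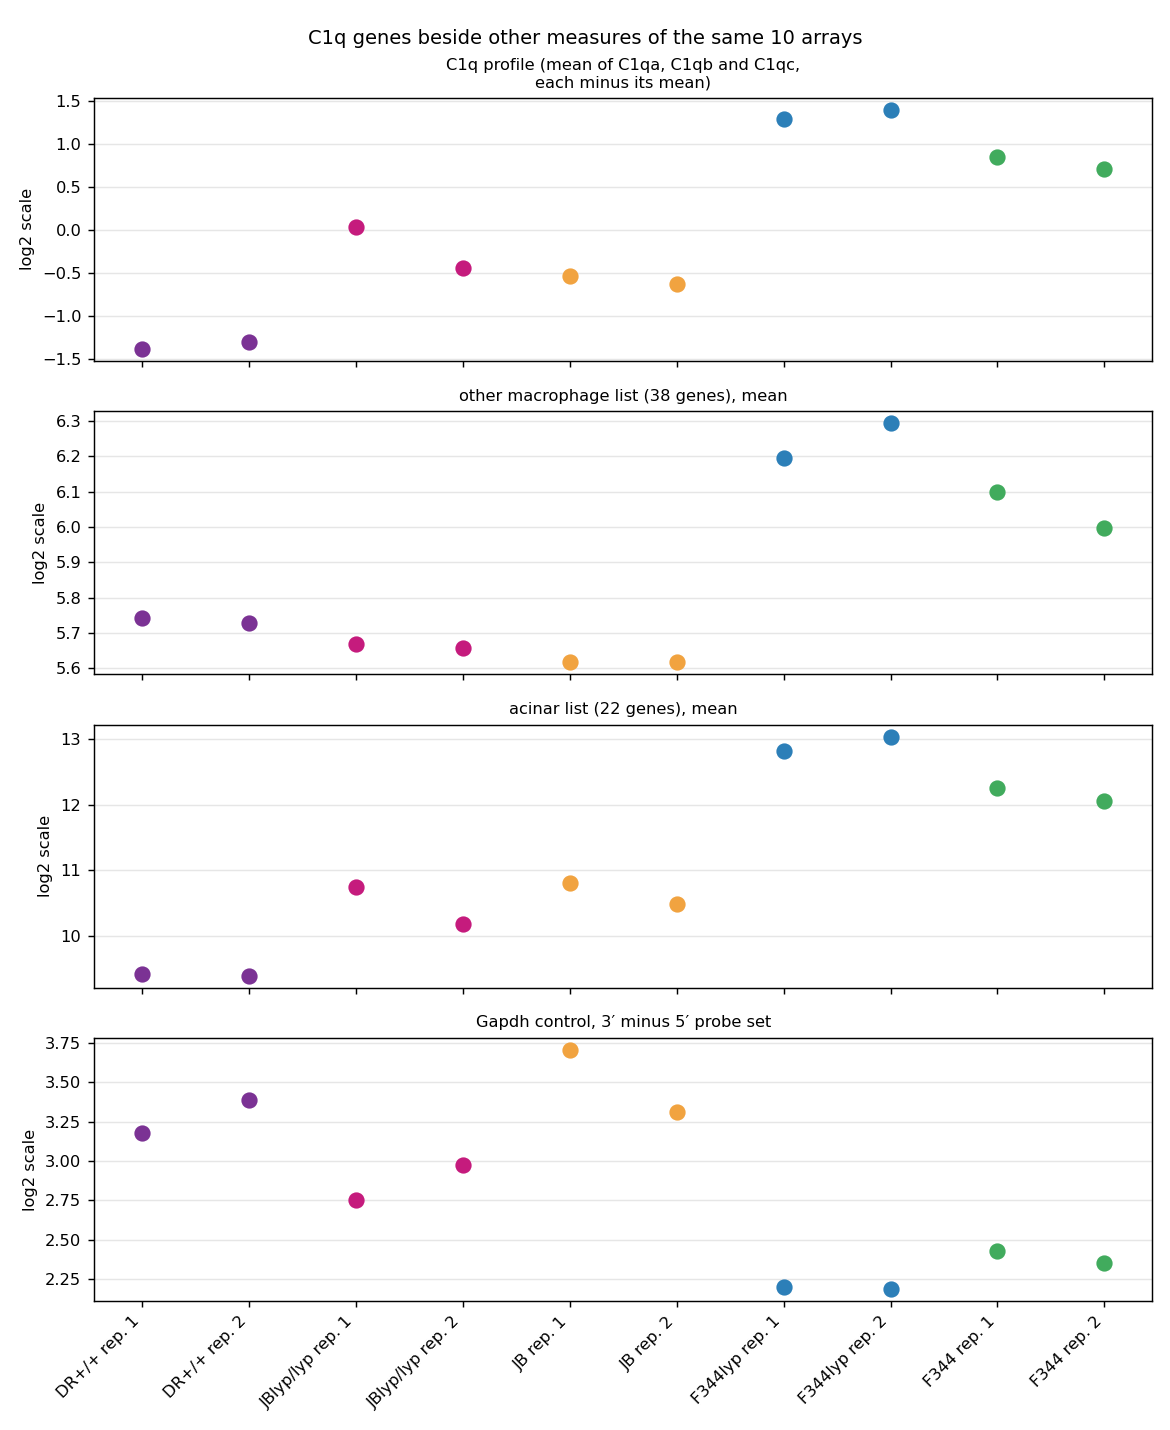
The C1q profile (mean of C1qa, C1qb and C1qc, each minus its own mean), the mean of 38 other macrophage genes, the mean of 22 acinar genes and the 3′ minus 5′ difference of the Gapdh control (vertical axes, log2 scale) in each of the 10 arrays (horizontal axis, 1 point per array). The C1q profile runs from -1.38 and -1.30 in DR+/+ to 1.29 and 1.39 in F344lyp, and the acinar mean has its lowest and highest values in the same groups.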

How the data were processed

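RNA of pancreatic islets was measured on 10 Affymetrix arrays. Each probe set has 1 deposited log2 value per array. Per the submitters' processing notes, which name no version, GCOS and RMA were used, so the authors had already put the arrays on a common scale. Scanner files were not used here. The number of arrays, 2 a group, limits the precision.

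After 57 control probe sets were set aside, limma 3.58.1 (R 4.3.3) estimated a mean for every group over the other 31042 (residual degrees of freedom 5, prior 4.72). The 8 comparisons were contrasts of these means, tested two-sided with eBayes. Calls were made at an adjusted p of 0.05 (Benjamini-Hochberg, over all 31042), without a minimum fold and with dim probe sets kept. The procedure was tested on simulated data. Figures come from matplotlib 3.10.9 (Python 3.11.15).

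A single symbol is annotated to 20826 probe sets, more than 1 to 436 and no symbol to 9780. No probe set with several symbols names a member (0), and all 10 members were found in RefSeq by gene identifier. The members and lists were chosen with earlier results of these data known. Named were all members, from each related list up to 4 called genes with the largest difference, and the 8 genes most like C1q, with uncharacterised loci passed over. Each array was also left out in turn, in the comparisons that use its group. The other alternatives changed the normalization, shrinkage, filter, covariate, block, weighting or choice of probe set, fitted the compared groups alone or, for BB against F344, left out the DR+/+ arrays. The replicate numbers are shared by the groups but were not taken to pair the samples, since deviations from the group means correlated over 0.1 in only 5 of 10 pairs of groups (-0.101 to 0.652, the highest for JB with JBlyp/lyp).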

Additional observations from a re-analysis of the deposited data

Results flagged for a closer look

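The effect of lyp differed between the backgrounds for 2 of the related genes, by the test of the difference itself (limma, Benjamini-Hochberg), at 2 arrays a group. They were 1 of 16 complement and 1 of 9 oxidase genes, against 0.478% of all genes. Of the 38 other macrophage genes 0 were called. In the same test 2 of 22 acinar, 2 of 13 ductal and 2 of 11 mast cell genes were lower and 0 higher. Each of these 3 counts fell without F344 replicate 2, and the part of such cells was not tested. For Duox2, an epithelial oxidase, the difference between the lyp effects was -2.08 (SE 0.22, adjusted p = 0.00584), with means of 3.92 in JBlyp/lyp and 4.04 in JB, and of 6.12 in F344lyp and 4.16 in F344. This call ended without F344 replicate 1, F344 replicate 2 or F344lyp replicate 2, and with the Gapdh covariate (adjusted p = 0.188). For Cfi, complement factor I, it was -1.90 (SE 0.30, adjusted p = 0.0377), with means of 4.50 in JBlyp/lyp and 5.04 in JB, and of 7.91 in F344lyp and 6.55 in F344. This call ended without any single array of these 4 groups other than JBlyp/lyp replicate 1, the array labelled JB replicate 2 included, with the Gapdh covariate (adjusted p = 0.188) and in a fit of these 4 groups alone (adjusted p = 0.0577).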

How the results depend on the processing

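Limits come first. With 2 arrays a group, 1 array decides many calls, the background comparison has no error for the spread between strains, and the Gapdh measure is almost a second label of background. Leaving out each array in turn gave 9 to 9 member calls for BB against F344, 4 to 5 for DR+/+ against F344, 2 to 3 for DR+/+ against JB, 6 to 9 for JBlyp/lyp against F344lyp, 2 to 6 for JB against F344 and 0 to 0 for lyp in JB, lyp in F344 and the difference between the lyp effects. Calls over all probe sets then ran from 6742 to 11310 for BB against F344 (10300 with all arrays), from 6217 to 7780 for DR+/+ against F344 (10206), from 6148 to 7551 for DR+/+ against JB (8793), from 1404 to 5482 for JBlyp/lyp against F344lyp (4383), from 879 to 2563 for JB against F344 (3595), from 58 to 241 for lyp in F344 (468), from 0 to 4 for lyp in JB (1) and from 18 to 130 for the difference between the lyp effects (88). With the Gapdh covariate the member calls were 0 for BB against F344, 1 for DR+/+ against F344, 0 for JBlyp/lyp against F344lyp and 0 for JB against F344, and the probe sets called were 8, 90, 103 and 1, with 123 for lyp in F344, 0 for lyp in JB and 7 for the difference between the lyp effects. With that covariate the signs of 2 called values turned, C1qb in JB against F344 at 0.067 (adjusted p = 0.999) and Cd40 in DR+/+ against F344 at -0.16. It also turned 7 member values that were called in neither fit, C1qb at -0.16 for lyp in JB and -0.18 for DR+/+ against JB, Aif1 at -0.41 for JB against F344 and -0.056 for JBlyp/lyp against F344lyp, C1qc at -0.069 for lyp in JB, Cd14 at -0.029 for DR+/+ against F344 and Lyz2 at 0.21 for the difference between the lyp effects. Over all alternatives 80 values called in neither fit changed sign, on leaving out 1 array for 28 member values and 30 others. With the mean of its probe sets Aif1 turned to -0.89 in JB against F344 and to -0.86 in JBlyp/lyp against F344lyp and was called in both, as it was in BB against F344 at -0.92 and in DR+/+ against F344 at -1.06, which made 10 and 7 members there; the cause is the construction, since its probe sets differ. For BB against F344, the strain as a random block gave 5 members and 959 probe sets, and 2 means with equal weight per array gave 8 members (Cd14 lost) and 3518 probe sets. Leaving out dim probe sets, those in the lower part by mean up to the median, kept 7 of the 10 members. C1qb, Cd68 and Aif1 were dropped, as their means lay at percentiles 48.5, 49.3 and 43.9 of all probe sets. In that fit 265 probe sets were called for lyp in F344 and 50 for the difference between the lyp effects. In fits of the compared groups alone there were 3 member calls for lyp in F344, and 1936 probe sets for JBlyp/lyp against F344lyp, 3230 for lyp in F344 and 0 for lyp in JB. Trend and robust shrinkage called 3 for lyp in JB. With the replicate number as a block, which was not taken as a pairing, member counts were 9, 6, 4, 9, 7, 0, 0 and 0 in the order BB against F344, DR+/+ against F344, DR+/+ against JB, JBlyp/lyp against F344lyp, JB against F344, lyp in JB, lyp in F344 and the difference between the lyp effects, the same as without it, and probe sets called were 745 for lyp in F344 and 5 for lyp in JB. The alternatives for the related lists, the other probe sets of members and the genes most like C1q were chosen after seeing the data. Apart from the values given, the cause of these shifts was not tested.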

Other observations

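The mean of 22 T cell genes was 5.48 and 5.51 in DR+/+, 4.90 and 4.91 in JBlyp/lyp, 5.19 and 5.16 in JB, 5.32 and 5.31 in F344lyp and 5.75 and 5.69 in F344, so both lyp groups lay below their partners without lyp. In JBlyp/lyp against F344lyp 7 T cell genes were lower and 0 higher (median -0.38), and in JB against F344 8 were lower and 0 higher (median -0.57). The first of these counts was 1 when F344lyp replicate 2 was left out and 4 when JBlyp/lyp replicate 2 was, and the second was 3 without either F344 array and 5 without the array labelled JB replicate 2, where 1 was higher. In BB against F344 9 T cell genes were lower and 2 higher. The higher count was 0 without the DR+/+ arrays and 0 or 1 without each single array other than F344lyp replicate 1. The mean of 9 B cell genes was 6.43 and 6.48 in DR+/+, 5.24 and 5.31 in JBlyp/lyp, 5.94 and 5.85 in JB, 5.76 and 5.87 in F344lyp and 6.03 and 6.00 in F344. In BB against F344 1 B cell gene was lower and 2 higher, and without the DR+/+ arrays 2 were lower and 0 higher. The lower count was also 2 without JB replicate 1 or JBlyp/lyp replicate 1, and the higher count was 1 without DR+/+ replicate 2, F344 replicate 2 or F344lyp replicate 2. The mean of 11 mast cell genes was 5.18 and 5.17 in F344lyp and between 4.46 and 4.64 in the other 8 arrays, and 3 of its genes were higher under lyp in F344. Of 13 ductal genes 4 were lower and 1 higher in BB against F344 (7 lower without the DR+/+ arrays, 0 higher without F344 replicate 2).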
